A study of Mus musculus with 5 samples.

Results

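The nuclear factor I (NFI) family was followed across the deposited expression table of mouse mammary gland, in which its 4 members, Nfia, Nfib, Nfic and Nfix, were taken by gene symbol from 22609 listed genes. The table compares glands of wild-type mice (2 libraries) with glands that the submitters describe as Nfib-null, or KO (3 libraries). Each gland came from an outbred mouse on the day of birth, at most 12 hours after delivery, and lymph nodes had been taken out before RNA extraction. The labels name no allele, Cre line or agent, and do not say whether Nfib was lost from every cell of the gland or from some. They give neither the age of the mice nor the number of animals behind a library. The tissue was whole gland, with RNA of milk-producing epithelium, myoepithelium, fat cells, fibroblasts, vessels and leukocytes. In such tissue fewer cells of a type and less RNA per cell cannot be told apart.

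The table holds 1 value per gene and group, in RPKM (reads scaled to gene length in kilobases and to sequencing depth), in columns headed Nfib-WT and NfibFF-WC. The heading Nfib-WT also opens the titles of the wild-type libraries. No label explains the heading NfibFF-WC, and, as the series has 2 groups, the Nfib-null group was given this column by elimination. In NfibFF-WC 68.2% of the 12205 values with 10 decimals end in the repeating digits that a mean of 3 values gives, and the Nfib-null group is the one with 3 libraries. In Nfib-WT 0 of 67 such values do. Both headings are used as names below. No value of a single library entered, so no spread between animals, no test and no p-value can be given, and a difference between the columns is described by its size alone. The tissue label held against its defining genes, with 8 milk genes at 61.8% of the column's sum in Nfib-WT and 26.2% in NfibFF-WC.

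NFI proteins are transcription factors that bind DNA as dimers, either as homodimers or with another member of the family. Each has a conserved N-terminal region for DNA binding and dimerization and a more variable C-terminal part that activates or represses transcription. Their preferred site is a palindrome with the half-site TTGGC. In the mammary gland, NFI sites lie in the regulatory regions of milk protein genes such as Wap, near sites for STAT5, the factor that carries the prolactin signal, and for the glucocorticoid receptor. The series asks how NFIB and STAT5 together govern the genes that pregnancy induces in mammary epithelium.

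The 4 genes are paralogs, so their sequences are shown first, because they decide whether a read can be given to 1 member. In an alignment of the longest coding sequence of each gene (GENCODE M21, build GRCm38), the 60 bases in which the members are most alike lie at codons 30 to 49 of Nfib, within the N-terminal region. Capitals mark bases that differ from Nfib.

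Nfib: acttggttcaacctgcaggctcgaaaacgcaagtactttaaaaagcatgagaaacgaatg
Nfia: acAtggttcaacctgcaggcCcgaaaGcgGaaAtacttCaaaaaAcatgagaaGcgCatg
Nfic: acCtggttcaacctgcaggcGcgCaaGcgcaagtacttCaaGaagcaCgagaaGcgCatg
Nfix: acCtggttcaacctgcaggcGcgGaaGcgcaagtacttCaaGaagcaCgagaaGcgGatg

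Of these 60 positions 48 were the same in all 4 genes, and Nfia, Nfic and Nfix each differed from Nfib at 9. The 60 gap-free bases in which the members are least alike lie at codons 230 to 249 of Nfib, after the N-terminal region, again with capitals for bases that differ from Nfib.

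Nfib: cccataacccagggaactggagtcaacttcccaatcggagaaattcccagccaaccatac
Nfia: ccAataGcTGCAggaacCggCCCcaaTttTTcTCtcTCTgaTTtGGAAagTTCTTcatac
Nfic: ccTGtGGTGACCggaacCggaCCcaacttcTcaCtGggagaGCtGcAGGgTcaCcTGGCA
Nfix: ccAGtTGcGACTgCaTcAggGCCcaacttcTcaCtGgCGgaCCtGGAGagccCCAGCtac

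In that stretch 19 positions were shared by all 4 genes, and the differences from Nfib numbered 29 in Nfia, 28 in Nfic and 30 in Nfix. Over the first 600 coding bases of Nfib, Nfia matched it at 75.9% of aligned bases, Nfic at 73.5% and Nfix at 77.3%. After those bases the identities were 58.0%, 55.5% and 55.4%. The closest pair over the whole coding sequence was Nfia and Nfix, at 70.7%.

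None of the 50-base words of the annotated coding transcripts of one member occurred in those of another, among 9605 words for Nfib, 9894 for Nfia, 6668 for Nfic and 6875 for Nfix. Neither the read length nor the handling of multiply mapped reads is given in the sources used here. With genes outside the family, Nfia and Nfib shared no such word, Nfic shared 0.360% of its words and Nfix 1.45%. Annotated genes on the opposite strand overlap each member, and the labels do not say if the counting used strand, so reads of both strands cannot be told apart. Those listed in the table were low. Lyl1, which overlaps Nfix, stood at 4.41 RPKM in NfibFF-WC and 1.63 in Nfib-WT, and E130114P18Rik, which overlaps Nfia, at 0.0942 and 0.0229 RPKM.

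Nfib, the gene the study targeted, had the highest level of the family in both columns. It stood at 55.3 RPKM in NfibFF-WC and 33.7 RPKM in Nfib-WT. The value in NfibFF-WC was thus the higher one for the targeted gene itself, and every direction given here is that of NfibFF-WC against Nfib-WT. RPKM over a whole gene also counts exons that a deletion leaves in place and transcripts of undeleted cells, so this value does not check the assignment. Among all 22609 genes, 94.9% had a lower value than Nfib in NfibFF-WC and 92.4% in Nfib-WT.

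Nfix, a member best known from brain and muscle development, stood at 43.2 RPKM in NfibFF-WC and 19.5 RPKM in Nfib-WT. Nfic, which is needed for tooth root formation and of which an isoform is known from mammary epithelium, stood at 37.1 and 21.9 RPKM. Nfia, known for its part in glial development and brown fat, had the lowest level of the family, at 13.5 and 6.83 RPKM. RPKM is scaled to gene length, so these levels can be ranked within a column. From high to low the order was Nfib, Nfix, Nfic, Nfia in NfibFF-WC and Nfib, Nfic, Nfix, Nfia in Nfib-WT. Nfic and Nfix are neighbours that exchanged places. Nfic was 1.12 times Nfix in Nfib-WT and 0.858 times Nfix in NfibFF-WC, and whether either gap exceeds the spread between libraries cannot be known from group values. Nfib was 4.93 times Nfia in Nfib-WT and 4.10 times Nfia in NfibFF-WC.

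**Figure D1:**
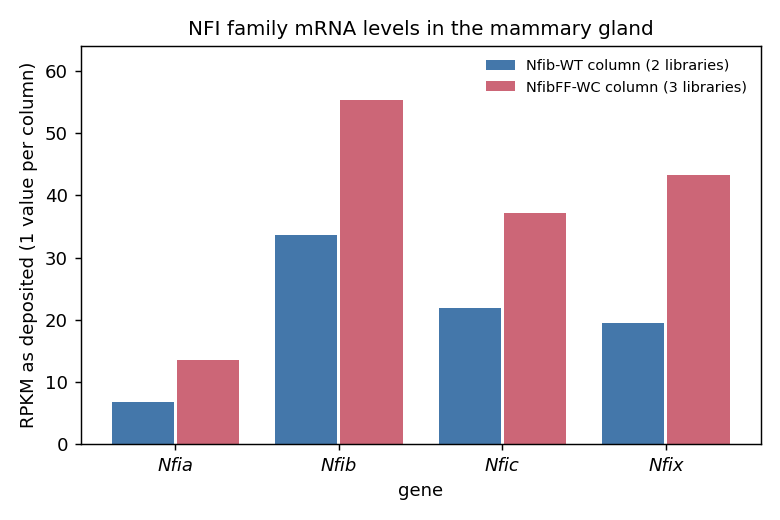
Level of each NFI gene (x axis) in RPKM as deposited (y axis), with 1 bar per column and no error bar because the table holds 1 value per group. Nfib is the tallest bar in both columns (33.7 and 55.3 RPKM) and Nfia the shortest (6.83 and 13.5 RPKM).

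The depth behind these values was estimated from low values of genes with 1 annotated transcript, each taken as 1 read in 1 library. The number of depths sought was set to 2 per column, which leaves 1 of the 3 libraries of NfibFF-WC without an estimate. The peaks of these estimates correspond to libraries of about 14900000 and 17600000 reads in Nfib-WT and of about 27200000 and 32800000 in NfibFF-WC. At those depths 1 kb of transcript corresponds to about 222 reads for Nfia, 1094 for Nfib, 711 for Nfic and 633 for Nfix in Nfib-WT. In NfibFF-WC the corresponding numbers, without the remaining library, were 810, 3316, 2226 and 2595. These numbers are approximate and cover counting only, not the spread between animals. Among genes at 100 RPKM or more, 8 of 489 in Nfib-WT shared their exact value with another gene, and in NfibFF-WC 0 of 544 did. No NFI gene shared its value with any gene in either column.

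As deposited, each member was higher in NfibFF-WC than in Nfib-WT, by 1.64-fold for Nfib, 1.70-fold for Nfic, 1.98-fold for Nfia and 2.22-fold for Nfix, a direction that turned for Nfib, Nfic and Nfia with scaling to luminal epithelial genes. Their sum was 149 RPKM against 81.8 RPKM, a ratio of 1.82. The columns as deposited differ in general, however, over the 12511 genes that had a mean of at least 1 RPKM, a minimum that 4 of 4 members passed. The median log2 ratio of those genes was 0.41, and their median difference on the log2(RPKM + 1) scale was 0.35. After median-ratio scaling, which sets the median ratio of those genes to 1, the ratios were 1.23 for Nfib, 1.28 for Nfic, 1.49 for Nfia and 1.67 for Nfix, and 1.37 for the sum. On the log2(scaled RPKM + 1) scale, which understates differences of low values, the differences were 0.30, 0.34, 0.52 and 0.71 in the same order.

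With a difference of at least 2-fold counted as higher or lower, 0 of 4 members were higher and 0 were lower after scaling. Of all 12511 genes 6.95% were higher and 5.97% lower. The member nearest to the limit was Nfix, whose difference lay above that of 87.3% of those genes. Nfia lay above 80.5%, Nfic above 72.2% and Nfib above 69.9%. As deposited, 1 of 4, Nfix, was at least 2-fold higher on the log2(RPKM + 1) scale (1.11), where 14.4% of all genes were higher and 2.95% lower. Nfia followed with 0.89.

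The sign of the difference depended on the scaling. Scaled to 12 luminal epithelial genes, Nfib differed by −0.32, Nfic by −0.27 and Nfia by −0.05, while Nfix differed by 0.11. The deposited ratios of those 12 genes themselves ran from 1.02 to 6.67. Under quantile normalization the values were 0.47 for Nfib, 0.46 for Nfic, 0.50 for Nfia and 0.85 for Nfix. Nfix had the highest value of the family under each of the scalings run.

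**Figure D2:**
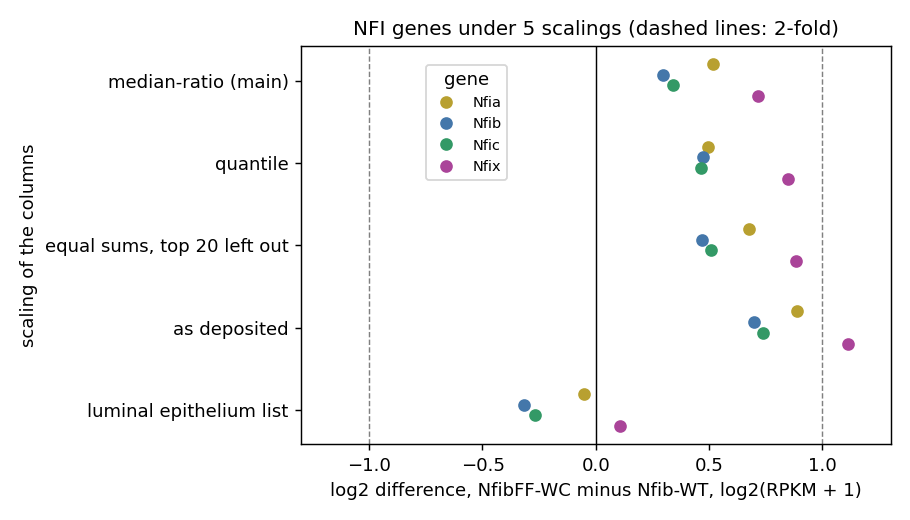
Log2 difference of each NFI gene (x axis, NfibFF-WC minus Nfib-WT on the log2(RPKM + 1) scale) under each scaling of the columns (y axis), with 1 point per gene. The points lie right of 0 except for Nfib, Nfic and Nfia under scaling to luminal epithelial genes, and Nfix as deposited (1.11) is the point past the dashed 2-fold line.

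A member's share of the family total does not depend on how a column is scaled. Nfib made up 41.1% of the NFI mRNA in Nfib-WT and 37.1% in NfibFF-WC, a difference of −4.06 percentage points. Nfix made up 23.8% and 29.0%, a difference of 5.20 points in the other direction. Nfic made up 26.7% and 24.9%, and Nfia 8.34% and 9.05%. Nfib was thus the largest part of the family total in both columns, and the largest single difference in share was that of Nfix.

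**Figure D3:**
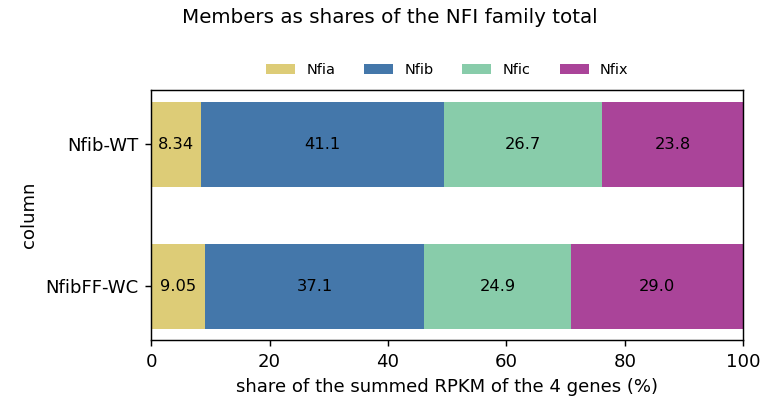
Share of each NFI gene in the summed RPKM of the 4 genes (x axis, percent), with 1 stacked bar per column (y axis). The Nfib segment is 41.1% in Nfib-WT and 37.1% in NfibFF-WC, and the Nfix segment 23.8% and 29.0%.

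The same was seen in ratios within a column. Nfib was 1.73 times Nfix in Nfib-WT and 1.28 times Nfix in NfibFF-WC, and this ratio had the largest proportional difference between the columns among the 6 pairs. Nfib was 1.54 times Nfic in Nfib-WT and 1.49 times Nfic in NfibFF-WC, the pair with the smallest difference. When Nfib was set aside, Nfix made up 40.4% of the other 3 members in Nfib-WT and 46.1% in NfibFF-WC, against 45.4% and 39.5% for Nfic and 14.2% and 14.4% for Nfia.

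The makeup of the family was set beside that of 11 other families of DNA-binding regulators and their partners. The composition shift is the sum of the gains in share, in percentage points, from Nfib-WT to NfibFF-WC. It was 5.91 points for the NFI family, the fourth smallest of 12. It was 3.75 for the TEAD factors, 12.9 for the C/EBP factors and 17.4 for the STAT factors, in which Stat5a was the largest member in Nfib-WT and Stat3 in NfibFF-WC. The ID proteins had 37.9 points, with Id2 at 86.8% of its family in Nfib-WT and 48.9% in NfibFF-WC. Families differ in their number of members, and no test was possible.

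Factors that act with NFI proteins were examined by a list of 12 genes for STAT5 signalling, steroid receptors and other partners, of which 10 passed the minimum. After scaling 3 were at least 2-fold lower and 1 higher, with a median of −0.20 against 0 over all genes. As deposited 1 was lower and 2 were higher. Of all 12511 genes 5.97% were lower and 6.95% higher after scaling, and 2.95% and 14.4% as deposited. The 3 lower ones were Elf5, the ETS factor of alveolar cells (321 RPKM in NfibFF-WC, 711 RPKM in Nfib-WT), the prolactin receptor gene Prlr (9.13 and 18.0 RPKM) and the glucocorticoid receptor gene Nr3c1 (27.5 and 42.9 RPKM). Of these, Prlr and Nr3c1 lay within 2-fold as deposited, at −0.91 and −0.62. Nr3c1, at −1.02 after scaling, also lay within 2-fold under quantile normalization (−0.87) and with equal sums without the 20 most abundant genes (−0.85). It did so too with a pseudocount of 5 (−0.92) and with a minimum of 5 RPKM (−0.96). With that pseudocount Prlr stood at −0.996.

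The higher partner was Foxa1, a pioneer factor of hormone-sensing cells that binds chromatin together with NFI proteins (3.79 and 0.816 RPKM). It passed the minimum through its NfibFF-WC value and fell below a minimum of 5 RPKM. Its log2 difference of 1.14 became 0.48 with a pseudocount of 5 and 0.75 with scaling to luminal genes, both within 2-fold. Ski, a corepressor, stood at 34.9 RPKM in NfibFF-WC and 16.3 RPKM in Nfib-WT, within 2-fold after scaling (0.66) and past it as deposited (1.05). Sox9, a progenitor factor, stood at 16.9 and 13.2 RPKM, and the estrogen receptor gene Esr1 at 6.25 and 5.80 RPKM. The progesterone receptor gene Pgr lay below the minimum.

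The balance of NFI and STAT5 mRNA can be read within a column, for the whole gland with all its cell types. It is not the balance within the epithelium. Stat5a stood at 55.7 RPKM in NfibFF-WC and 63.7 RPKM in Nfib-WT, and Stat5b at 26.6 and 22.1 RPKM. The log2 difference of Stat5a was −0.59 after scaling and, with scaling to luminal genes, −1.21, which is past 2-fold. For Stat5b the values were −0.14 and −0.74. The NFI total was 0.954 times the sum of Stat5a and Stat5b in Nfib-WT and 1.81 times that sum in NfibFF-WC. Nfib alone was 0.392 times the sum in Nfib-WT and 0.672 times in NfibFF-WC, and Nfix 0.227 and 0.526 times. Relative to Elf5, the NFI total was 0.115 in Nfib-WT and 0.465 in NfibFF-WC, a 4.04-fold difference, and relative to Nr3c1 it was 1.91 and 5.42.

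Genes known from other work as NFI targets, in the gland or in other tissues, were listed by the direction of the regulation described. Of 14 genes described as activated by an NFI protein, 11 passed the minimum, 5 were at least 2-fold higher and 2 lower after scaling. Their median was 0.76, against 0 over all 12511 genes, of which 6.95% were higher and 5.97% lower. As deposited 9 were higher and 2 lower, beside 14.4% and 2.95% of all genes. The list thus held members far apart in direction. The lower members were milk genes. Wap, which encodes whey acidic protein, stood at 9085 RPKM in NfibFF-WC and 102755 RPKM in Nfib-WT, a log2 difference of −3.91 that came within 2-fold under quantile normalization (−0.69). That normalization gives genes of equal rank the same value in both columns. It therefore cannot show the size of a difference for a gene among the highest of both, such as Wap. Cel, the bile salt-stimulated lipase of milk and a described target of a Nfic isoform, stood at 99.6 and 715 RPKM (−3.24, and −3.00 under quantile normalization). The Wap value in Nfib-WT is one of those shared exactly with another gene, Glycam1.

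The higher members were Fabp4, the fatty acid carrier of fat cells (5819 and 1183 RPKM, log2 1.89), Klf4, an epithelial Krüppel-like factor (19.6 and 3.85 RPKM, 1.73), Apcdd1, a WNT inhibitor (21.4 and 4.61 RPKM, 1.63), Col1a2, a chain of type I collagen (245 and 62.3 RPKM, 1.55), and Cebpa, a factor of fat cell differentiation (69.5 and 20.9 RPKM, 1.29). Within 2-fold after scaling were Cdh1, the gene of E-cadherin (69.2 and 30.4 RPKM, 0.76), Eno3, muscle enolase (4.61 and 1.69 RPKM, 0.76), Pparg, the fat cell receptor (34.6 and 15.4 RPKM, 0.73), and Trp53 (34.9 and 16.5 RPKM, 0.64). These 4 passed 2-fold as deposited. Gfap and Fabp7, glial genes, lay below the minimum. So did Ucp1, the brown fat uncoupling protein, which was listed at 0 in Nfib-WT.

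Of 6 genes described as repressed by an NFI protein, 4 passed the minimum, 1 was higher and 0 were lower after scaling or as deposited. Over all 12511 genes 6.95% were higher and 5.97% lower after scaling, and 14.4% and 2.95% as deposited. Hes1, a Notch target, stood at 25.3 RPKM in NfibFF-WC and 5.30 RPKM in Nfib-WT (log2 1.69). Nfatc4, a calcium-responsive factor, stood at 4.10 and 1.64 RPKM (0.66), Cdkn1a, a cell cycle inhibitor, at 7.83 and 6.91 RPKM (−0.20), and Ezh2, the histone methyltransferase of a Polycomb complex, at 9.26 and 10.1 RPKM (−0.48). Foxf1a and Edn2 lay below the minimum.

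**Figure D4:**
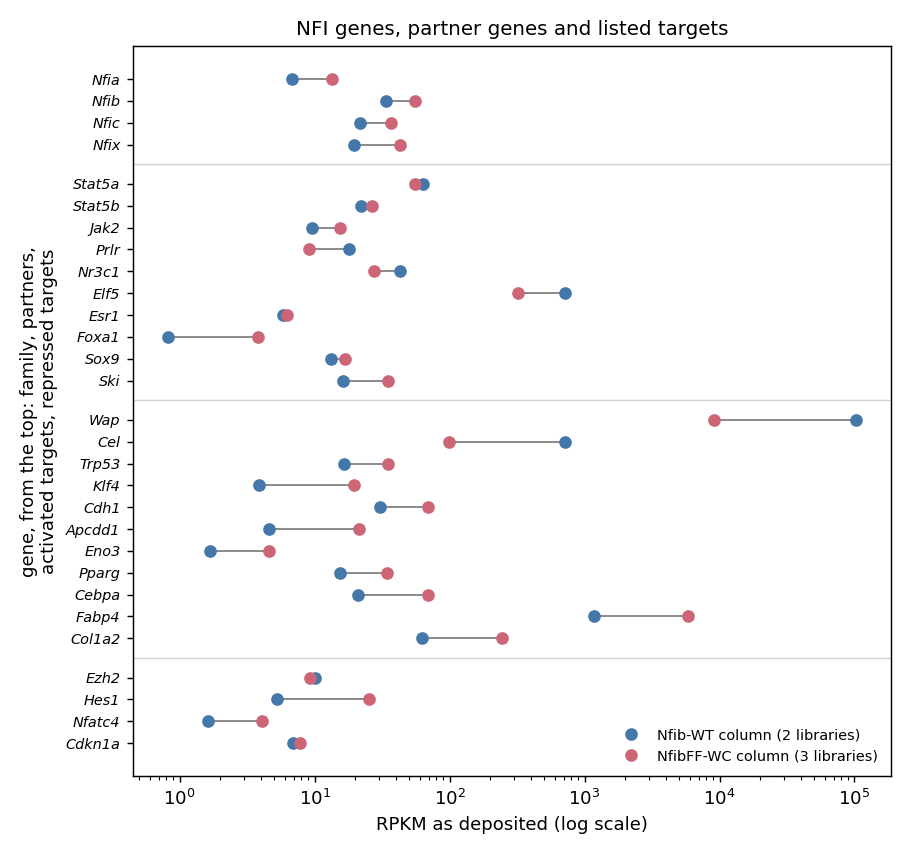
RPKM as deposited (x axis, log scale) of the NFI genes, the listed partners, and the listed activated and repressed targets that passed the minimum (y axis, in blocks from the top), with 1 point per column and a line joining the columns. The lines of the NFI genes are short beside those of Wap (102755 to 9085 RPKM) and Cel (715 to 99.6 RPKM), which run the other way.

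Promoter sequences from RefSeq (build GRCm38.p6, 250 bases before to 50 bases after a start) were found for 3 of the 4 members and 15 of the 20 listed targets. The member without a sequence was Nfib, so the promoter of the targeted gene was not searched. The sequences found were searched on both strands for the NFI half-site TTGGC, the palindrome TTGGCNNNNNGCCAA and the STAT-type sequence TTCNNNGAA. The half-site is short and was found in 46.7% of 32851 promoters. It was found in 3 of the 6 promoters of NFI members (Nfix has 4 of these). Counted by gene, with a match in any promoter of that gene, it was found in 11 of the 15 targets with a sequence. Some targets have several promoters, so this count is not comparable with the share of promoters. The palindrome was found in 0.0365% of all promoters and in none of those of members or listed targets. The STAT-type sequence was found in 8.30% of all promoters and in 2 of the 6 NFI promoters, those of Nfic and the second of Nfix. The 250 bases before the start are printed below for these 2 promoters, because they hold a match in a member, and for Wap and Cel, because these were the lower targets. Capitals mark matches to TTGGC or its complement GCCAA and to TTCNNNGAA. The intervals are chr8:84775829-84776078 for Nfix, chr10:81427174-81427423 for Nfic, chr11:6638650-6638899 for Wap and chr2:28563404-28563653 for Cel, each on the minus strand.

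Nfix: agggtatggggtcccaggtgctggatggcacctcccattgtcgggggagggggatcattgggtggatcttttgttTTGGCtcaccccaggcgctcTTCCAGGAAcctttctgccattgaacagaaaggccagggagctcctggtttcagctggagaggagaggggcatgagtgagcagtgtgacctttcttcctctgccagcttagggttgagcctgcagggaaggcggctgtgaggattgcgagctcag
Nfic: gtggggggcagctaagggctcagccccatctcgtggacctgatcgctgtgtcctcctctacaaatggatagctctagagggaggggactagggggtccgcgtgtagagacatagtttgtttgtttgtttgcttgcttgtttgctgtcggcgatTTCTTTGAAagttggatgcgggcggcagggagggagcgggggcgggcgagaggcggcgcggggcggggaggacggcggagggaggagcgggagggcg
Wap: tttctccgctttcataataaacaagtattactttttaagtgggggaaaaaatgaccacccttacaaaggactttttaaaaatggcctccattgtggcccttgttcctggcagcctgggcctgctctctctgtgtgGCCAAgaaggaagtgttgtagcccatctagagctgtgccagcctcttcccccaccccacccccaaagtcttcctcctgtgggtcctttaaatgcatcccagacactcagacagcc
Cel: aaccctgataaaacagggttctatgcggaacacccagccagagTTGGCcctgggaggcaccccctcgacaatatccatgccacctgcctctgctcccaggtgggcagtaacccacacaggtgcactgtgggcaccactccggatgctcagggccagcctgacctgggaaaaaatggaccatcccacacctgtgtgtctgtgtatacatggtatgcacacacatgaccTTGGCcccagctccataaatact

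The Nfix promoter holds a half-site and a STAT-type match, the Nfic promoter a STAT-type match without a half-site, the Wap promoter a half-site as GCCAA, and the Cel promoter 2 half-sites as TTGGC. The Nfia promoter and the first of Nfix held neither. A match describes the letters in a window and is no evidence of binding.

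The columns also differed in genes that mark cell types of the gland, and these values stand beside the NFI differences. Summed over 12 luminal epithelial genes such as Krt18, Krt19 and Krt8, the level was 2063 RPKM in NfibFF-WC and 1035 RPKM in Nfib-WT, a ratio of 1.99 that lay near the 1.82 of the NFI total. The NFI total was thus 7.91 RPKM per 100 RPKM of luminal genes in Nfib-WT and 7.23 in NfibFF-WC. Of the 12 luminal genes 3 were at least 2-fold higher after scaling and 7 as deposited, with 0 lower in both. Their single ratios were uneven, from 1.02 to 6.67 as deposited, and the lowest log2 difference after scaling was −0.38. The shares over all 12511 genes were 6.95% higher and 5.97% lower after scaling, and 14.4% and 2.95% as deposited. The summed ratio was 1.64 for 9 basal and myoepithelial genes (0 higher and 0 lower after scaling and as deposited). It was 1.40 for 8 endothelial genes, of which 0 were higher after scaling, 2 as deposited, and 0 lower.

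Other lists differed by more than the NFI genes, and their counts stand beside the same shares over all genes. All 10 white adipocyte genes were higher after scaling and as deposited, and their sum was 4747 against 983 RPKM, a ratio of 4.83. Of 10 fibroblast and matrix genes 9 were higher after scaling and 10 as deposited, with a ratio of 3.70, and of 8 macrophage genes 7 and 8 were higher, with a ratio of 3.42. Of 8 lymphocyte genes 5 were lower after scaling and 3 as deposited, with a ratio of 0.429. The 8 milk genes were all lower in both, with a ratio of 0.246. No gene of these marker lists was at 0 in either column. NFI genes are expressed in many cell types, and the part of these cell types in the NFI differences was not tested. The targets Fabp4, Cebpa and Pparg are expressed in fat cells, and Col1a2 stands in the fibroblast list, and the part of these cells in their differences was not tested either.

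**Figure D5:**
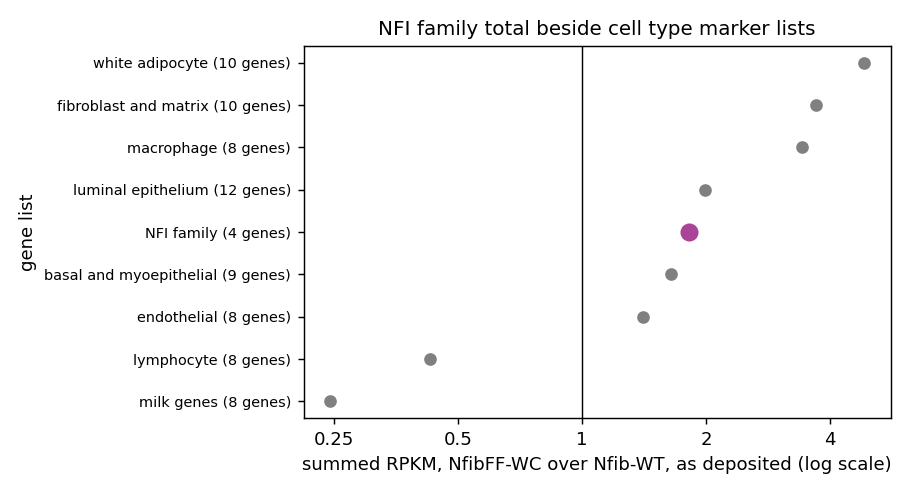
Summed RPKM of each gene list in NfibFF-WC over that in Nfib-WT, as deposited (x axis, log scale), for the NFI family (large point) and marker lists (y axis, with the number of genes). The NFI family (1.82) lies between the luminal (1.99) and basal (1.64) lists, with white adipocyte genes at 4.83 and milk genes at 0.246.

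The sums of the columns differ mostly through milk genes, and the NFI total was also set against those sums. It was 86.3 RPKM per 1000000 RPKM of the column in Nfib-WT and 272 in NfibFF-WC, a 3.15-fold difference. With the 8 milk genes left out of the sum it was 226 and 368 RPKM, a 1.63-fold difference.

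The genes nearest to each member in both columns, by Euclidean distance of log2(RPKM + 1) over the 2 values, were Prr13, Rbm5 and Sbds for Nfib, Bnip3l, Rhoq and Enpp5 for Nfix, Vkorc1, Ccnd3 and Ano10 for Nfic, and Rbbp9, Atg2a and Uckl1 for Nfia. Their distances ran from 0.011 (Prr13, at 54.9 and 33.8 RPKM) to 0.052 (Enpp5, at 41.7 and 19.3 RPKM). Between 9 genes (for Nfib) and 42 genes (for Nfia) lay within 0.1 of a member. The members themselves lay further apart, with Nfic and Nfix the closest pair at 0.268. Only 2 values entered each distance, so likeness here is that of a level and a ratio.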

How the data were processed

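Poly(A) RNA of 5 mammary gland libraries was sequenced on an Illumina HiSeq instrument after TruSeq preparation, per the labels' protocols. CASAVA, TopHat and the build mm9 are listed, without versions or roles, per the submitters' processing notes. The sources used here do not give the counting tool, the annotation or the denominator. The authors deposited RPKM for 22609 genes in 2 columns, with 1 value per group, per the file headers.

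Genes whose mean, weighted by libraries, reached 1 RPKM were kept (12511 kept, 10098 removed). Columns were divided by median-ratio factors (1.15 for NfibFF-WC, 0.867 for Nfib-WT), and a difference is that of log2(scaled RPKM + 1), NfibFF-WC minus Nfib-WT. Higher or lower means at least 2-fold. With 1 value per group no test was made. The scaling was tested on simulated data, in which the columns differed by a common factor and by equally many higher and lower genes. The simulation does not cover differences in cell types or milk genes between the columns. Depth was estimated from low values of genes with 1 annotated transcript, with the number of peaks set to 2 per column.

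Members, lists and limits were chosen with earlier results of these data known. Named genes were the members, every partner and target, the 3 genes nearest to each member, and at most 3 of each other list. 1 listed partner is not reported here. Coding sequences were aligned with MAFFT 7.526, and tables were made with Python 3.11.15 and pandas 2.3.3.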

Additional observations from a re-analysis of the deposited data

How the results depend on the processing

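No paired analysis was possible because the table holds 1 value per group and no value per library, and for the same reason no library could be left out. With values as deposited Nfix passed 2-fold (1.11), so that 1 NFI gene was higher, 1800 of all genes were higher and 369 lower (83.0% of those called were higher, against 53.8% with median-ratio scaling), 2 partners were higher and 1 lower, and 9 activated targets were higher. Setting equal sums, with the 20 most abundant genes left out, gave 68.2% higher, with the median of all genes at 0.15. With scaling to luminal genes, which moved the median of all genes to −0.54, Nfia (−0.050), Nfib (−0.32) and Nfic (−0.27) turned sign, 264 genes were higher and 2591 lower (9.25% higher), and 0 partners and 3 activated targets were higher and 1 repressed target lower. Under that scaling 4 partners were lower, among them Stat5a (−1.21). Quantile normalization, which evens out genes that are among the highest of both columns, left 1 activated target, Cel, and 2 partners lower. A pseudocount of 0.1 gave 1313 genes higher. A pseudocount of 5 gave 346 higher and 444 lower (43.8% higher), with 0 partners higher and 1 lower. A minimum of 5 RPKM left 0 partners higher and 2 lower. At a limit of 1.5-fold Nfix (0.71) counted as higher, so 1 NFI gene did, with 2145 genes higher and 1833 lower, 2 partners, 9 activated targets and 2 repressed targets higher. At that limit 4 partners were lower, among them Stat5a (−0.59). At 4-fold 91 genes were higher and 154 lower (37.1% higher), 0 partners were higher and 0 lower, and 0 activated and 0 repressed targets were higher. For the other settings run, the members' differences kept their sign and stayed within 2-fold. The differences in share kept their sign when weighted by transcript length (−4.12 points for Nfib, 4.17 for Nfix) and without Nfib (5.66 for Nfix, −5.87 for Nfic). The NFI composition shift was the same with the minimum of 1 RPKM.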
